A study of Mus musculus with 12 samples.

Results

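The Slc1 family of membrane transporters was described in RNA-seq gene counts of mouse small-intestinal epithelium, through the genes Slc1a1 to Slc1a5. These 5 genes were taken by name from the 23366 gene entries of each of 12 libraries. The family was chosen by its normalised levels in these libraries, namely shifts between its members over the groups and the high level of Slc1a2 in adult stem cells, so comparisons of Slc1a2 with stem cells, and the opposite shifts of Slc1a1 and Slc1a5 between stem cells and enterocytes, are given here as levels and folds, with no test. All 5 genes passed the filter on low counts, Slc1a1 only through its adult levels. The other tests on them are by edgeR's quasi-likelihood method, with p-values adjusted by the Benjamini-Hochberg method over all 15342 genes tested and a threshold of 0.05.

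The 4 groups had 3 libraries each, from mice of mixed C57BL/6 and CD1 background. E12.5 and E14.5, named by embryonic day, were embryonic intestinal cells carrying the epithelial surface protein EpCAM, with cells positive for the endothelial marker CD31 or the leukocyte marker CD45 sorted away. Each E12.5 library came from a pool of 20 embryos. ISC and AE each came from 1 gut per library of males at postnatal day 60 carrying Lgr5EGFP-Cre-ERT, an allele that marks cells expressing the stem-cell receptor gene Lgr5. ISC were crypt cells with high Lgr5-EGFP fluorescence, so Lgr5 itself belongs to the gate. AE were cells that the labels call enterocytes, sorted from villus material with the EpCAM, CD31 and CD45 gates used on the embryos. Titles and age labels contradict each other in all 6 embryonic libraries, each giving the stage that the other does not. Stages here follow the titles, and the sign of E14.5 against E12.5 rests on that choice.

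Gene counts per library ran from 12.6 to 45.2 in units of 1000000. Epcam stood at 483 ± 46.9 (SD, n = 3), 854 ± 20.4, 1043 ± 49.7 and 1603 ± 406 normalised counts per 1000000 (CPM) in E12.5, E14.5, ISC and AE. Lgr5 stood at 24.8 ± 5.30, 81.8 ± 3.69, 508 ± 39.6 and 23.3 ± 3.20 CPM. In the AE libraries 5 goblet-cell markers summed to between 14758 and 24243 CPM and 6 Paneth-cell markers to between 2919 and 6925 CPM, so these libraries held RNA of other epithelial types beside enterocytes. The 8 enterocyte markers summed to 23224, 50870 and 55308 CPM in AE replicates 1, 2 and 3, so replicate 1 stood apart as the lowest. In ISC the Paneth-cell markers summed to between 2323 and 4043 CPM. In bulk RNA a smaller number of cells of a type cannot be told apart from less RNA per cell.

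Members of the family share 1 fold and couple uptake to the sodium gradient, and they divide into transporters of acidic and of neutral amino acids. Slc1a1 (EAAC1 or EAAT3), Slc1a2 (GLT-1 or EAAT2) and Slc1a3 (GLAST or EAAT1) carry glutamate and aspartate. Slc1a4 (ASCT1) and Slc1a5 (ASCT2) exchange neutral amino acids, Slc1a5 with glutamine as a main substrate. In the small intestine Slc1a1 is known as the carrier of dietary glutamate at the brush border, and glutamate and glutamine are major fuels of this epithelium. Slc1a2 and Slc1a3 are best known from astrocytes, where they clear glutamate released at synapses.

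Promoter windows, from 250 bases before to 50 after the RefSeq start on GRCm38.p6, were found for 4 of the 5 genes. That for Slc1a5 was not analysed here. The windows of Slc1a1, Slc1a2 and Slc1a4 are shown because these genes reached their highest levels in different groups, AE, ISC and E14.5. They lie at chr19:28834885-28835184 on the plus strand, chr2:102706188-102706487 on the plus strand and chr11:20332664-20332963 on the minus strand. Each is printed 5′ to 3′ on the strand of the gene, with capitals at motif matches.
Slc1a1: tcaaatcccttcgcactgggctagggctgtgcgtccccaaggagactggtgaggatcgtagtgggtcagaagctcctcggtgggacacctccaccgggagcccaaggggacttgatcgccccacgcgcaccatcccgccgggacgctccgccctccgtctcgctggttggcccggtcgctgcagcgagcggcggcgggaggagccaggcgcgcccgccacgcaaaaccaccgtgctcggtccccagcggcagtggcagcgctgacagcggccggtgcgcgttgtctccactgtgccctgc
Slc1a2: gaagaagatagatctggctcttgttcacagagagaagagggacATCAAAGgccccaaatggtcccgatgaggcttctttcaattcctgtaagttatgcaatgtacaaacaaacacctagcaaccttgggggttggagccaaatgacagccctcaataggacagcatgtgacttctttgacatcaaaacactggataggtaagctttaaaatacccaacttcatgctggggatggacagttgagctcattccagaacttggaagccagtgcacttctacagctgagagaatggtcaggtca
Slc1a4: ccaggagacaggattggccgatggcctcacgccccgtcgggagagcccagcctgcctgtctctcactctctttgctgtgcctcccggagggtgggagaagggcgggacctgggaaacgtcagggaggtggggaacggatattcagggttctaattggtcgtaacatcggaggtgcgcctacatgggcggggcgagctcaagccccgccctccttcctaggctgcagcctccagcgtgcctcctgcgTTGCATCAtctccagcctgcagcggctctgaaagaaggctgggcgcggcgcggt

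The motifs searched on both strands were CTTTGAT and CTTTGAA, core letters of sites bound by the Wnt effectors TCF and LEF, TGATGNAA, letters of the amino acid response element bound by ATF4, and CACGTG, the E-box bound by MYC and related proteins. The Slc1a2 window held 1 match to CTTTGAT, on the strand opposite to the gene, from base 44 to base 50 of the window. CTTTGAT was present in 3.73% of 32851 promoter windows of the same length. The Slc1a4 window held 1 match to TGATGNAA, also on the opposite strand, from base 247 to base 254, and this motif was present in 3.97% of windows. The windows of Slc1a1 and Slc1a3 held no match to any of the 4 motifs, and CTTTGAA and CACGTG were present in 5.14% and 7.15% of all windows. The matches are a description of letters, and which start site these cells use was not measured. The windows also differed in base composition, with 32 CG pairs for Slc1a1, 21 for Slc1a4, 3 for Slc1a3 and 1 for Slc1a2, where the median window held 7.

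Slc1a1, the intestinal glutamate and aspartate carrier, was close to the detection floor in the embryo and abundant in both adult groups. It stood at 0.160, 0.0888 and 0.147 CPM in the E12.5 libraries, on 5, 2 and 4 reads. In E14.5 it stood at 0.449, 0.176 and 0.483 CPM, on 18, 9 and 11 reads. The lowest E14.5 library was just above the highest E12.5 library. The rise from E12.5 to E14.5 was 2.45-fold (log2 change 1.29, SE 0.49, adjusted p = 0.0398 by edgeR). That call was lost without any 1 of 5 of the 6 embryonic libraries, whereas leaving out E14.5 replicate 2 gave adjusted p = 0.00377. Leaving out replicate 1, 2 or 3 of E12.5 gave an adjusted p of 0.0681, 0.112 or 0.0778, and leaving out replicate 1 or 3 of E14.5 gave 0.144 or 0.0938. In a fit of the 6 embryonic libraries alone the gene was left out by the filter, so it passed the filter through its adult levels.

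In ISC the level of Slc1a1 was 59.8, 60.6 and 56.6 CPM, and in AE it was 163, 138 and 109.9 CPM. The 3 ISC libraries were within a narrow band, and every AE library was above them. Slc1a1 was 171-fold higher in ISC than in E14.5 (log2 change 7.42, SE 0.25) and 419-fold higher than in E12.5 (log2 change 8.71, SE 0.29). Since the gene passed the filter only through its adult levels, no p is given for its adult groups against the embryo. By the fit, AE was a further 2.33-fold above ISC (log2 difference 1.22). Slc1a1 was the 1 member of the 5 whose highest level was in AE.

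A gene on the opposite strand, 4430402I18Rik, overlaps 31.9% of the annotated exon bases of Slc1a1, and the strand setting of the counts is not given in the sources used here. 4430402I18Rik stood at 0.705 ± 0.113, 0.925 ± 0.233, 2.01 ± 0.415 and 7.38 ± 3.06 CPM (SD, n = 3) in E12.5, E14.5, ISC and AE. In ISC and AE it was far below Slc1a1, whereas in the embryo it was above it, so the embryonic reads of the pair are the less certain. Of the stretches of 50 bases in Slc1a1 transcripts, 31.0% also occur, on either strand, in transcripts of another gene, against 0% to 1.31% in the other 4 members. That share includes the overlap with 4430402I18Rik, so it does not show repeated sequence elsewhere.

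**Figure D1:**
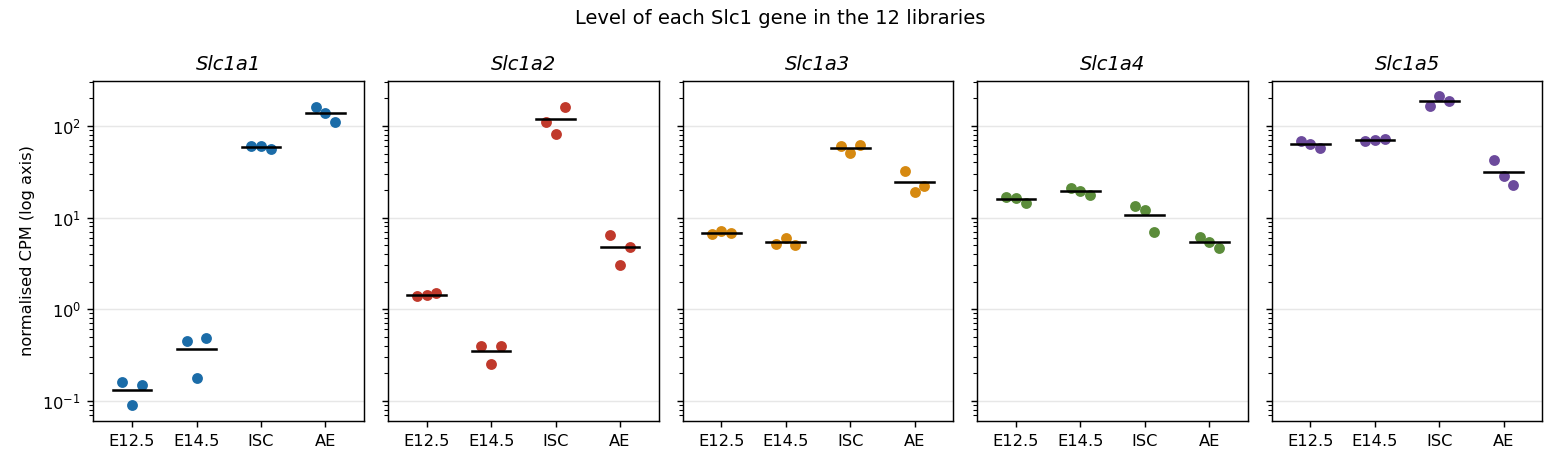
Normalised CPM on a log axis of Slc1a1 to Slc1a5 in the 12 libraries, 1 panel per gene, with points for libraries and a bar at the mean of 3. Slc1a1 climbs from under 0.5 CPM in the embryo to 109.9 to 163 CPM in AE, Slc1a2, Slc1a3 and Slc1a5 are highest in ISC, and Slc1a4 is highest in E14.5.

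Slc1a2, the main astrocytic glutamate transporter gene, was low in the embryo, lower still at E14.5, and stood high in ISC. It was at 1.38, 1.42 and 1.504 CPM in E12.5 and at 0.399, 0.254 and 0.396 CPM in E14.5, on 9 to 16 reads per E14.5 library. It fell 4.22-fold between the embryonic stages (log2 change -2.08, SE 0.40, adjusted p = 0.000772 by edgeR), with no overlap between the libraries of the stages. Slc1a2 and Slc1a1 were the 2 of 5 members called in this comparison, in opposite directions, where 49.2% of all genes tested were called.

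In ISC the level of Slc1a2 was 110.1, 82.1 and 162 CPM, the values for which it was chosen. The lowest ISC library stood 206 times above the highest E14.5 library, 54.6 times above the highest E12.5 library and 12.8 times above the highest AE library. By the fit, ISC was 346-fold above E14.5, 82.1-fold above E12.5 and 24.0-fold above AE. The smallest of these log2 differences, 4.58, placed Slc1a2 second among 7191 genes of at least 20 CPM in ISC. By the same measure Slc1a5 was at place 137 and Slc1a3 at place 174. Among all 15342 genes tested, with no cut on level, Slc1a2, Slc1a5 and Slc1a3 were at places 9, 310 and 379.

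The 3 ISC libraries differed more in Slc1a2 than in most genes of like level. Its coefficient of variation was 34.3%, against a median of 8.29% over 3021 genes within 2-fold of its level, and 98.3% of those genes varied less. Replicate 3 was the highest for Slc1a2. It was also the highest ISC library for 9 summed stem-cell markers, at 12370 against 11169 and 11281 CPM. It was the lowest for Paneth-cell markers, at 2323 against 3375 and 4043 CPM, and for enterocyte markers, at 418 against 605 and 1132 CPM. The part of these differences in the spread of Slc1a2 was not tested.

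In AE the level of Slc1a2 was 6.41, 3.02 and 4.80 CPM, which was above both embryonic groups in every library. It was 14.4-fold higher in AE than in E14.5 (log2 change 3.85, SE 0.37, adjusted p = 2.81e-07 by edgeR) and 3.42-fold higher than in E12.5 (log2 change 1.78, SE 0.31, adjusted p = 0.000104). The order of the 4 groups was therefore ISC, AE, E12.5 and E14.5, and each neighbouring pair that was tested passed the threshold. The 9 stem-cell markers summed to 1229 to 1537 CPM in AE and 741 to 768 CPM in E14.5, with Olfm4 (606 ± 58.7 CPM) and Slc12a2 (493 ± 107 CPM) making up most of the AE sum. Other markers of the list did not share that order, and Lgr5 stood at 23.3 CPM in AE and 81.8 CPM in E14.5. The part of such cells in the AE level of Slc1a2 was not tested.

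Slc1a3, which encodes the glial transporter GLAST, was also highest in ISC but was present at every stage. It stood at 6.55, 7.06 and 6.86 CPM in E12.5 and at 5.21, 5.99 and 5.01 CPM in E14.5, a difference that did not pass the threshold (log2 change -0.33, SE 0.18, adjusted p = 0.148 by edgeR). The ISC libraries held 61.0, 50.8 and 61.6 CPM, and the AE libraries 32.5, 19.2 and 22.3 CPM. The adult groups did not overlap with each other or with the embryo. From E14.5 to ISC it rose 10.6-fold (log2 change 3.41, SE 0.18, adjusted p = 1.63e-09), and from ISC to AE it fell 2.32-fold (log2 change -1.21, SE 0.17, adjusted p = 2.11e-05). AE remained 3.65-fold above E12.5 (adjusted p = 2.32e-07) and 4.59-fold above E14.5 (adjusted p = 6.05e-08).

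Slc1a2 and Slc1a3 are glial genes elsewhere, and 5 of 7 glial markers were under 1 CPM in ISC, where both transporters stood highest. Of 7 enteric glial markers, Sox10, Fabp7 and Foxd3 had no read in ISC, S100b stood at 0.264 ± 0.162 and Gfap at 0.213 ± 0.146 CPM. Erbb3, which epithelium also expresses, made up nearly all of the summed level, at 225 ± 5.36 CPM in ISC. The 7 markers together ran from 225 to 235 CPM in ISC, 272 to 520 in AE, 120.4 to 125.4 in E14.5 and 73.4 to 79.9 in E12.5. Of 5 liver markers, listed because hepatocytes express Slc1a2, Afp, Alb, Apoh and Ahsg stood at 0.198, 0.265, 0.307 and 0.0690 mean CPM in ISC. Ttr, the fifth, stood at 27.8 ± 8.58 CPM in ISC, 49.8 ± 4.78 in E12.5, 52.8 ± 0.464 in E14.5 and 6.35 ± 0.682 in AE.

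Slc1a4, encoding a carrier of alanine, serine and cysteine, showed the opposite course, with its highest levels in the embryo. It stood at 16.7, 16.4 and 14.3 CPM in E12.5 and at 21.0, 19.7 and 17.8 CPM in E14.5. The stages did not pass the threshold (log2 change 0.30, SE 0.19, adjusted p = 0.211 by edgeR), although a fit of the 6 embryonic libraries alone called it, at adjusted p = 0.00601. The ISC libraries held 13.2, 12.1 and 6.96 CPM, with replicate 3 the low library, and in AE at 6.13, 5.39 and 4.68 CPM. It fell 1.82-fold from E14.5 to ISC (log2 change -0.87, SE 0.20, adjusted p = 0.00180) and 1.95-fold from ISC to AE (log2 change -0.96, SE 0.22, adjusted p = 0.00129). It was 3.55-fold lower in AE than in E14.5 (adjusted p = 2.29e-06). ISC was 1.48-fold below E12.5 (adjusted p = 0.0222), a call that was lost without E12.5 replicate 1, E12.5 replicate 2 or ISC replicate 3, at adjusted p = 0.0642, 0.0571 and 0.0614.

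Slc1a5, the glutamine exchanger gene, was expressed in all groups and reached its highest level in ISC. It stood at 69.2, 63.6 and 56.8 CPM in E12.5 and at 69.3, 69.9 and 71.4 CPM in E14.5. The embryonic stages lay side by side and did not pass the threshold (log2 change 0.15, SE 0.17, adjusted p = 0.499 by edgeR, and 0.0267 in a fit of the 6 embryonic libraries alone). In ISC the level was 164, 209.9 and 189 CPM, and in AE it was 42.3, 28.5 and 22.5 CPM. It rose 2.67-fold from E14.5 to ISC (log2 change 1.42, SE 0.18, adjusted p = 8.83e-06) and by the fit AE was 5.95-fold below ISC (log2 difference -2.57, no test). AE was also 2.23-fold below E14.5 (adjusted p = 3.97e-05) and 2.01-fold below E12.5 (adjusted p = 0.000125). AE replicate 1, which had the lowest summed enterocyte markers, held the highest AE level of Slc1a5, and of Slc1a1, Slc1a2, Slc1a3 and Slc1a4 as well.

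**Figure D2:**
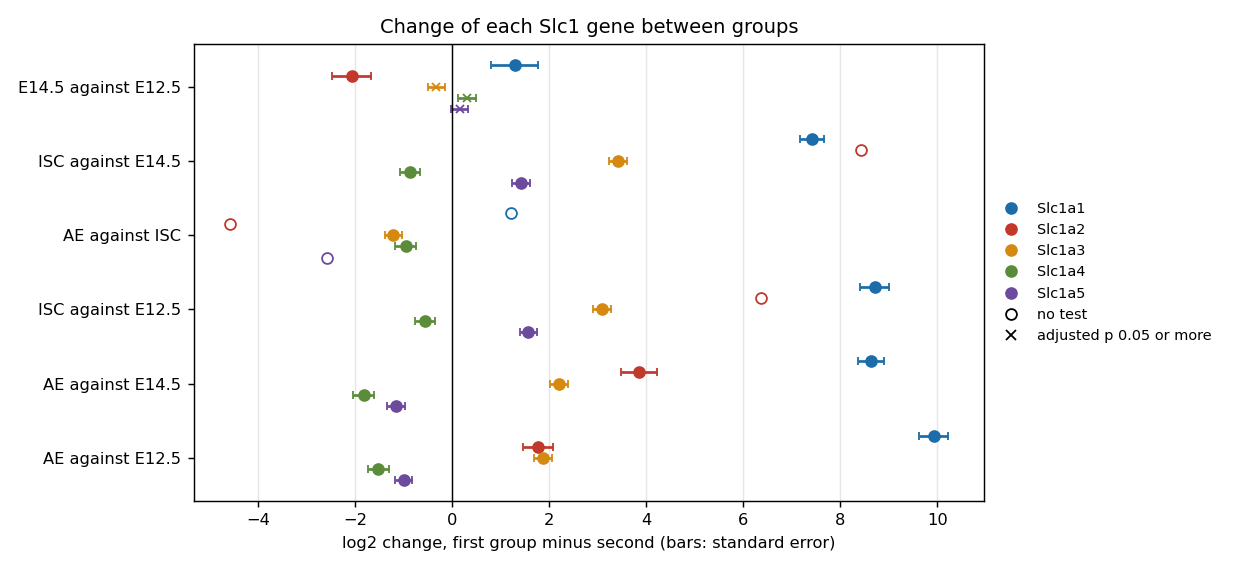
Log2 change of Slc1a1 to Slc1a5 in the 6 comparisons of 2 groups, with bars for the standard error of the fit, open circles where no test was made and crosses where adjusted p was 0.05 or more. From ISC to AE, Slc1a1 lies at 1.22 and Slc1a5 at -2.57, on opposite sides of 0.

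Counted over the family, the 4 members tested were all called between ISC and E14.5, with 3 higher and 1 lower in ISC, where 60.7% of all genes were called. Against E12.5 the same 4 were called with the same signs, beside 68.5% of all genes, 33.9% higher and 34.6% lower. From ISC to AE the 2 members tested, Slc1a3 and Slc1a4, fell, where 67.8% of all genes were called, 32.6% higher and 35.2% lower. Between AE and each embryonic stage all 5 were called, with Slc1a1, Slc1a2 and Slc1a3 higher and Slc1a4 and Slc1a5 lower in AE, where 78.2% of genes were called against E14.5 (36.7% higher, 41.5% lower) and 82.1% against E12.5 (38.4% higher, 43.7% lower). Slc1a1 is counted as called in every comparison of an adult with an embryonic group, though it passed the filter only through its adult levels. Most genes differed in these comparisons, so the number called says little about the family, and its content lies in the sizes and signs. The median log2 change of the members tested was 2.41 in ISC against E14.5, and over all genes it was -0.00. The family was chosen for shifts of its members over the groups, so this median is a description only. These comparisons share groups, so their values are given side by side and were not set against each other.

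Reads with more than 1 alignment made up 3.06% to 5.96% of reads in E12.5 and ISC, while the files of E14.5 and AE list 0 of them. The 3 comparisons along the course cross that split, and so does AE against E12.5. A batch that follows the split cannot be told apart from the group in these comparisons. Every neighbouring pair in the order of Slc1a2, which was ISC, AE, E12.5 and E14.5, crosses it. Each side of the split holds 1 comparison of an adult with an embryonic group. Slc1a3 was 8.47-fold higher in ISC than in E12.5 (adjusted p = 2.33e-09 by edgeR), and Slc1a5 was 2.97-fold higher (adjusted p = 2.42e-06). On the other side of it, Slc1a3 was 4.59-fold higher in AE than in E14.5 (adjusted p = 6.05e-08 by edgeR). Slc1a5 went the other way there, 2.23-fold lower in AE (adjusted p = 3.97e-05 by edgeR). Slc1a1 was 419-fold higher in ISC than in E12.5 and 398-fold higher in AE than in E14.5, with no p given.

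To compare the genes with each other, CPM was divided by exon length in kilobases. On this scale Slc1a5 was the most abundant member in E12.5, E14.5 and ISC, and Slc1a1 in AE. The summed level of the 5 genes was 20.1 ± 1.79 (SD, n = 3) and 22.5 ± 0.165 CPM per kilobase for E12.5 and E14.5, 70.6 ± 4.48 for ISC and 28.7 ± 6.49 for AE. Slc1a5 made up 75.3% ± 0.847 and 74.8% ± 1.72 of that sum at the embryonic stages, 63.5% ± 4.78 among ISC and 25.6% ± 2.48 among AE. Slc1a1 made up 0.0800% ± 0.0239, 0.199% ± 0.0911, 10.2% ± 0.875 and 58.1% ± 2.93. The leading member thus passed from the glutamine exchanger gene to the glutamate carrier gene between ISC and AE.

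**Figure D3:**
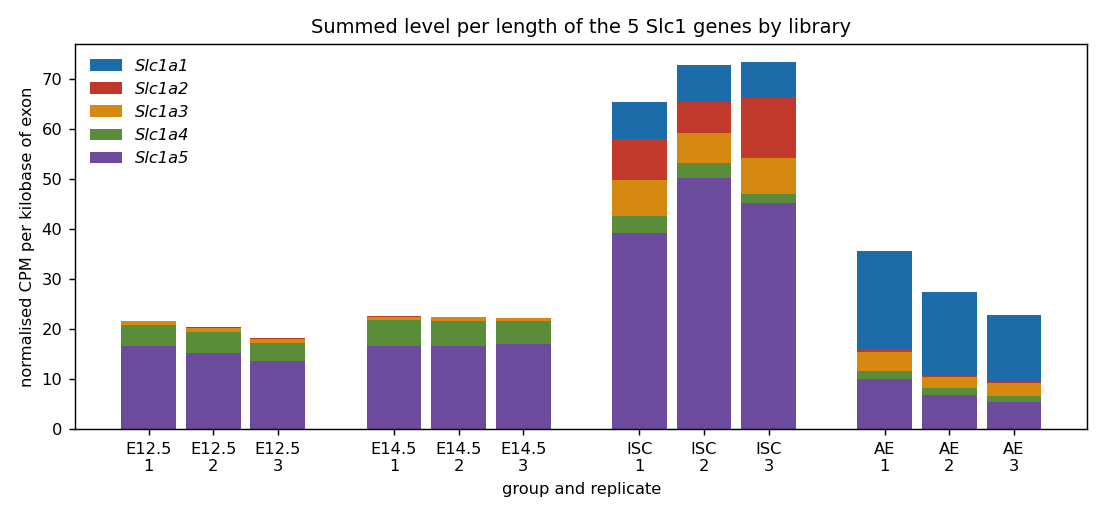
Normalised CPM per kilobase of exon, stacked over Slc1a1 to Slc1a5, for each of the 12 libraries. The ISC bars are the tallest, at 70.6 ± 4.48 on average, Slc1a5 fills most of the embryonic and ISC bars, and Slc1a1 fills most of each AE bar.

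In a single library the level per kilobase of Slc1a5 was between 766 and 1418 times that of Slc1a1 in E12.5, between 292 and 788 times in E14.5 and between 5.42 and 6.86 times in ISC. In AE it was the other way round, with Slc1a1 at 1.94 to 2.47 times Slc1a5. The ranges of the groups did not overlap between the embryo, ISC and AE. Among the glutamate transporters, Slc1a3 led in every E12.5 and E14.5 library, at 10.0 to 76.9 times Slc1a1 per kilobase. In ISC the order of the 3 depended on the length used. By the union of exons they were at 7.14 ± 0.257, 8.99 ± 3.09 and 6.77 ± 0.713 CPM per kilobase for Slc1a1, Slc1a2 and Slc1a3, with Slc1a2 the highest. By the longest transcript their shares of the family's ISC level were 14.4%, 9.41% and 12.1%, with Slc1a2 the lowest. In AE Slc1a1 stood at 16.6 ± 3.19 and Slc1a3 at 2.89 ± 0.817 CPM per kilobase.

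The glutamate transporters Slc1a1 to Slc1a3 together held 4.10% to 5.15% of the summed level per kilobase in E12.5 and 3.03% to 3.30% in E14.5. They held 26.8% to 36.0% in ISC and 67.2% to 71.2% in AE. By the longest transcript they held 30.7% to 38.7% and 75.3% to 78.9%, and without division by length 46.6% to 58.9% and 80.6% to 83.4%. On each scale the ranges of ISC, AE and the embryo did not overlap. Of the neutral pair, Slc1a5 exceeded Slc1a4 per kilobase by 3.65 to 3.90 times in E12.5, 3.10 to 3.77 times in E14.5, 11.6 to 25.5 times in ISC and 4.52 to 6.48 times in AE. The pair was most unequal in ISC. These ratios are descriptions, with no test, since such shifts between members were part of what the family was chosen for.

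The family has 2 further glutamate transporter genes. Slc1a6 (EAAT4), known from Purkinje neurons, had 31 reads over the E12.5 libraries and 11 over those of E14.5. It had 1 read in ISC and 0 in AE, where 0 reads allow up to 0.0606 CPM. Slc1a7 (EAAT5), known from the retina, had 53 reads in AE, or 0.981, 1.55 and 0.685 CPM, against 1 read at E12.5, 0 at E14.5 and 2 for ISC. Its AE level was at least 40.8-fold higher than the floor of 3 reads over the E14.5 libraries. No test is given, since Slc1a7 passed the filter on low counts only through AE. Slc1a6 was thus detected mainly in the embryo and Slc1a7 in AE.

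The genes whose levels followed each member most closely were found by Pearson correlation of log2(CPM + 0.5) over the 12 libraries, among 10999 genes of at least 5 CPM on average. These correlations are driven by the differences between the 4 groups, and the libraries share those groups, so no p is given. Slc1a2 was closest to Sema5a, a semaphorin gene (r = 0.99), followed by Chrm3, encoding a muscarinic acetylcholine receptor, Slco3a1, encoding an organic anion transporter, Gm684 and 4933417O13Rik. Sema5a stood at 86.2, 51.9, 761 and 132 mean CPM in E12.5, E14.5, ISC and AE, and so shared the order of the groups. Slc1a1 was closest to Casp1, the inflammatory caspase gene, Gm1123 and Slco2b1, and 1128 genes had r above 0.9 with it. Slc1a3 was closest to Pcca, encoding a propionyl-CoA carboxylase subunit, Mmd and the urea transporter gene Slc14a1. Slc1a4 was closest to Plk2, a polo-like kinase gene, 2700094K13Rik and 2310057M21Rik. Slc1a5 was closest to Tfpi, Neil3, a DNA glycosylase gene, and Tbc1d4. Among the members, Slc1a2 and Slc1a3 were the most alike (r = 0.95) and Slc1a1 and Slc1a4 the most opposed (r = -0.86).

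In perivenous hepatocytes, Slc1a2 is known as a target of beta-catenin together with the glutamine synthetase gene Glul and the ornithine aminotransferase gene Oat. Of 14 genes known from that zone or as general Wnt targets, Glul and Oat among them, 12 were tested. From E14.5 to ISC 10 rose and 0 fell, where 30.2% of all genes rose and 30.6% fell. From ISC to AE 9 fell and 2 rose, where 32.6% of all genes rose and 35.2% fell. The 10 that rose into ISC include Glul, the gate gene Lgr5 and Cyp2e1. Cyp2e1, at 0 mean CPM in E14.5, passed the filter only through the adult groups. Its rise into ISC was thus set by the filter. Lgr5, Axin2 and Rnf43 are also among the stem-cell markers, so these counts are a description of cells sorted for Lgr5. Axin2, the Wnt feedback gene, stood at 57.7 ± 1.86 CPM at E14.5, 627 ± 77.2 CPM for ISC and 109 ± 14.7 CPM for AE. Rnf43, encoding a Wnt receptor ligase, stood at 123 ± 6.22, 430 ± 24.5 and 79.7 ± 17.6 CPM. Both stood higher in ISC than in E14.5 and AE. No p is given for them, since both are also markers of the cells sorted. Glul, named after its values were seen and so given with no test, stood at 110.5, 66.9, 127 and 46.3 mean CPM in E12.5, E14.5, ISC and AE, so that its E12.5 level was near that of ISC, unlike Slc1a2.

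Not all genes of that list had the course of Slc1a2. Oat, at 746 ± 23.5, 1009 ± 90.8 and 989 ± 244 CPM in E14.5, ISC and AE, rose into ISC (adjusted p = 0.0272 by edgeR) and was near its ISC level in AE (log2 change -0.03, adjusted p = 0.9005). Tbx3, a transcription factor gene, was highest in AE, at 487 ± 196 CPM against 101 ± 0.562 in ISC (adjusted p = 1.03e-06). Cyp1a2 and Notum, the 2 genes of the list that did not pass the filter, stayed under 0.5 CPM in every group and were not tested. Cyp2e1, a cytochrome P450 gene, stood at 58.1 ± 7.83 CPM in ISC and 4.20 ± 1.00 in AE, and Rhbg, an ammonium transporter gene, at 0.584 ± 0.241 and 13.03 ± 3.72 CPM, both named after their values were seen. Lgr5 is in the list and in the gate, so its rise into ISC is not a finding.

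**Figure D4:**
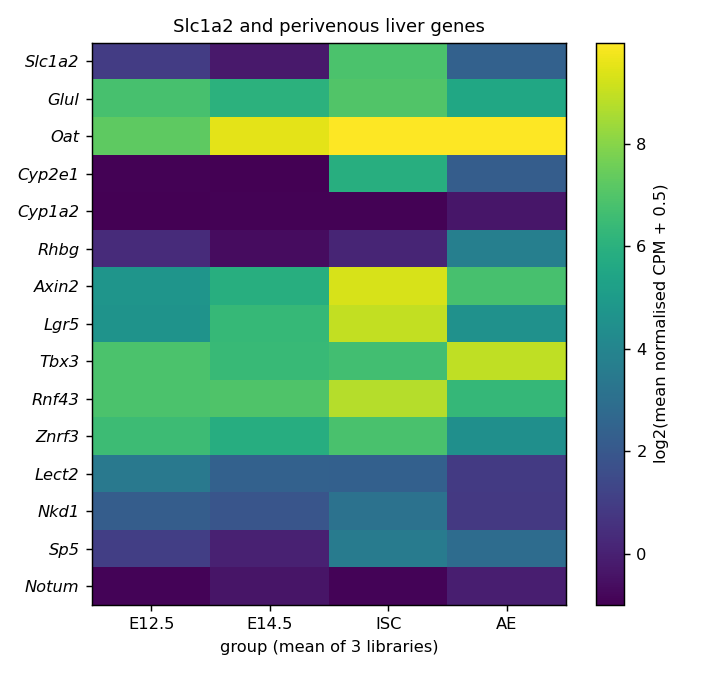
Mean normalised CPM of 3 libraries, as log2(CPM + 0.5), of Slc1a2 and 14 genes known from perivenous liver or as Wnt targets, with 1 row per gene and 1 column per group. Slc1a2, Cyp2e1, Axin2, Lgr5 and Rnf43 are brightest in ISC, and Tbx3 and Rhbg in AE.

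Of 24 genes that make or use glutamate and glutamine, 23 were tested. From E14.5 to ISC 6 rose and 13 fell, where 30.2% of all genes rose and 30.6% fell. From ISC to AE 10 rose and 8 fell, where 32.6% of all genes rose and 35.2% fell. The median log2 change of the list from ISC to AE was 0.03, and it changed sign with upper-quartile scaling, to -0.16. Glud1, encoding glutamate dehydrogenase, stood at 884 ± 58.1, 1206 ± 31.2, 909 ± 188 and 1741 ± 395 CPM in E12.5, E14.5, ISC and AE. Gfpt1, which uses glutamine to make hexosamines, stood at 186 ± 5.77, 295 ± 7.65, 246 ± 23 and 1008 ± 228 CPM. Both had their highest mean in AE.

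Of 13 genes of glutathione and cysteine metabolism, which include peptidases and enzymes that break down glutathione, 10 rose and 0 fell from ISC to AE, beside 32.6% and 35.2% of all genes. With upper-quartile scaling 10 rose and 1 fell. Anpep, the brush-border aminopeptidase N gene, stood at 507 ± 142 CPM in ISC and 13296 ± 4591 in AE. Slc3a2, encoding the heavy chain of amino acid exchangers, stood at 101 ± 6.55 and 372 ± 86.5 CPM. Gsr, encoding glutathione reductase, stood at 101 ± 6.88 and 168 ± 11.5 CPM, and Gpx1, a glutathione peroxidase gene, at 192 ± 61.3 and 359 ± 101 CPM. Of 8 serine and glycine synthesis genes, 6 fell and 1 rose from ISC to AE, beside 35.2% and 32.6% of all genes. Psat1, encoding phosphoserine aminotransferase, stood at 217 ± 16.3, 136 ± 3.78, 34.2 ± 3.25 and 15.5 ± 9.52 CPM along the course, and was lowest in AE as was the serine carrier gene Slc1a4. Shmt1, Shmt2 and Mthfd1, of folate-linked serine and glycine metabolism, stood at 92.2 ± 5.46, 96.2 ± 1.45 and 111 ± 6.62 CPM in ISC and 33.9 ± 11.6, 37.1 ± 11.5 and 60.8 ± 22.3 CPM in AE.

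Of 22 other amino acid transporter genes, 21 were tested, and 12 rose and 6 fell from ISC to AE, beside 32.6% and 35.2% of all genes. The median log2 change of the list was 2.47, and over all genes it was -0.05. Slc43a2, a large neutral amino acid transporter gene, stood at 35.6 ± 10.0 CPM in ISC and 1564 ± 514 in AE, and Slc16a10, an aromatic amino acid transporter gene, at 171 ± 25.8 and 681 ± 280.0 CPM. Slc38a1, a sodium-coupled glutamine transporter gene, was highest in the embryo, at 769 ± 38.5 and 747 ± 12.9 CPM, against 257 ± 26.1 CPM for ISC and 109 ± 33.4 CPM for AE. Slc38a2, of the same family, stood at 548 ± 24.3, 386 ± 10, 363 ± 12.48 and 289 ± 106 CPM.

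Of 7 genes whose proteins bind or control Slc1 transporters, 5 rose and 1 fell from ISC to AE, beside 32.6% and 35.2% of all genes. Slc9a3r1, encoding a scaffold protein of the microvillus, stood at 66.5 ± 11.9 CPM in ISC and 973 ± 336 in AE. Sgk1, encoding a kinase that raises the activity of several transporters, stood at 33.7 ± 15.1 and 148 ± 157 CPM. Rnf5, a ubiquitin ligase gene, stood at 69.8 ± 6.25 and 165 ± 48.3 CPM, and Nedd4l, another, at 131 ± 13.3 and 204 ± 9.47 CPM. Of 10 genes of the amino acid response and of Myc, 5 rose and 1 fell from E12.5 to E14.5, where 23.6% of all genes rose and 25.6% fell. Myc stood at 49.0 ± 17.3, 198 ± 12.6, 370 ± 43.1 and 43.9 ± 6.74 CPM along the course, and Atf4 at 99.5 ± 21.2, 137 ± 3.51, 325 ± 112 and 230 ± 46.5 CPM. Both had their highest mean in ISC, as Slc1a5 did, but the other 2 most abundant genes of the list did not. Asns, encoding asparagine synthetase, stood at 75.5 ± 2.18, 81.4 ± 2.26, 77.4 ± 8.83 and 35.8 ± 16.5 CPM, and Max, encoding the partner of MYC, at 98.1 ± 20.9, 109 ± 5.90, 134 ± 19.6 and 417 ± 199 CPM.

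Of 23 glutamate receptor genes, 10 passed the filter on low counts. Of these 7 fell and 1 rose from E14.5 to ISC, beside 30.6% and 30.2% of all genes, and 3 rose and 1 fell from ISC to AE, beside 32.6% and 35.2%. Gria3 and others of the 10 passed the filter only through the embryo, and Grin2a only through AE. The direction of such genes was set by the filter, so these counts are not a result about the receptors. Grik5, a kainate receptor subunit gene, stood at 58.6 ± 5.32, 28.6 ± 0.0816, 15.1 ± 0.802 and 3.51 ± 0.372 CPM along the course. Gria3, encoding an AMPA receptor subunit, stood at 28.3 ± 3.50 CPM in E12.5 and 2.43 ± 0.988 in E14.5, and had no read in AE. Grik4, another kainate receptor subunit gene, stood at 36.5 ± 5.88, 13.3 ± 0.768, 0.276 ± 0.240 and 0.433 ± 0.171 CPM, and Grin3a, encoding an NMDA receptor subunit, at 3.51 ± 0.731, 2.78 ± 0.485, 2.01 ± 0.484 and 1.61 ± 0.504 CPM. Grin2d and Grin2a, named after their values were seen, were highest in AE, at 5.09 ± 1.62 and 1.49 ± 0.608 CPM. Markers of enteric neurons were low in every group, summing to 16.4 to 17.8 CPM at E12.5, 20.7 to 22.9 CPM at E14.5, 1.87 to 2.67 CPM for ISC and 5.99 to 8.79 CPM for AE, and their part in these receptor levels was not tested.

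Mesenchymal and muscle markers, 10 in all, summed to 167 to 209.0 CPM at E12.5 and 317 to 394 CPM at E14.5, whereas the ISC libraries held 2.61 to 3.87 CPM and the AE libraries 3.10 to 6.87 CPM. Vim made up most of the E12.5 sum, at 160 ± 24.2 CPM, and stood at 72.6 ± 0.801 CPM at E14.5. Each of the other markers had its higher embryonic mean at E14.5, for example Pdgfra at 10.1 against 2.43 CPM and Acta2 at 65.7 against 4.89 CPM. The part of mesenchyme and muscle in the higher embryonic levels of Slc1a4 was not tested. Immune markers, 6 in all, summed to 23.4 to 32.6 CPM over E12.5, E14.5 and ISC and 36.8 to 65.9 in AE.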

How the data were processed

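RNA-seq libraries were made per the labels' protocols from 50000 sorted cells, with 50 ng of total RNA amplified to cDNA by an Ovation kit. The values deposited by the authors are counts, not normalised, of the reads assigned to each gene symbol. The submitters' processing notes list the aligner STAR 2.3.1z13 and the counter HTSeq 0.6.1p1, with DESeq2 1.6.3, SAMtools 1.2, bcl2fastq 1.8.4 and the build mm9. For annotation and strandedness, the setting was not given in the sources used here. The 5 closing lines of each file, which name no gene, stayed out of library sizes. Reads listed outside genes were 33.4% to 58.1% of reads.

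Tests used edgeR 4.0.16 (R 4.3.3) on all 12 libraries, with 1 coefficient per group, its expression filter, TMM scaling (factors 0.696 to 1.16) and a prior count of 0.125 in fold changes. CPM uses the same scaling. Exon lengths are unions of GENCODE M21 exons on GRCm38, a later build than mm9. Groups and replicate numbers came from titles, and all replicate pairs differed by more than sampling noise. Replicate numbers were not used to pair libraries, since correlations of same-numbered libraries were not all over 0.1 in any comparison. That cut-off cannot exclude a pairing. In AE against ISC the correlations of replicates 1, 2 and 3 were 0.035, 0.144 and 0.072, and whether those libraries shared guts was not tested. DESeq2 1.42.0, limma-voom 3.58.1, other scalings, no filter, 6-library fits, a replicate block and leaving out each library were tried. The method was tested on simulated data.

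The members and the 23 gene lists (217 entries, all found) were chosen with earlier results of these data known. Genes named were the members and Slc1a6 and Slc1a7, the genes most like each member, up to 4 genes of highest mean CPM in each pathway list whatever their change, and marker genes. Glul, Cyp2e1, Rhbg, Cyp1a2, Notum, Grin2a, Grin2d and 4430402I18Rik were named outside that rule. Slc1a1 and Slc1a5 between ISC and AE were planned as tests and are given without one, since the choice of the family used that shift. Some genes that this rule names are not reported here. Floors are 3 reads over a group and cover counting error only. How many embryos made an E14.5 library is unstated in the labels, so p-values measure the spread between libraries.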

Additional observations from a re-analysis of the deposited data

How the results depend on the processing

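No member's log2 change reversed. Medians of gene lists near 0 did change sign with the scaling. These were glutamate metabolism in ISC against E12.5 (0.04, and -0.06 to -0.03 under 3 settings) and, with upper-quartile scaling, in AE against ISC and AE against E14.5 (0.19 to -0.05), the amino acid response in ISC against E14.5 (0.01, and -0.05 to -0.03) and AE against E14.5 (0.15 to -0.10), and serine synthesis in ISC against E12.5 (0.06, and -0.03 to -0.01). The count of genes past the threshold stayed within 1.5 times in all 78 recomputations, for example 8864 to 10651 over 7 settings for AE against ISC. Of the recomputed log2 changes with a test, 313 kept their direction and side of the threshold, 9 lost their call and 2 gained one, and 65 with no test kept their direction and moved by less than 1 SD. The number of members called moved in E14.5 against E12.5, from 2 to 1 with limma-voom, where Slc1a1 had a log2 change of 1.14 (adjusted p = 0.162), and to between 1 and 2 when single libraries were left out. In a fit of the 6 embryonic libraries it was 3, with Slc1a4 and Slc1a5 called and Slc1a1 not tested. In ISC against E12.5 it was 3 to 4 when single libraries were left out. The cause was not tested. Upper-quartile scaling moved the median log2 change of all genes from -0.05 to -0.25 in AE against ISC, from -0.12 to -0.37 in AE against E14.5 and from -0.15 to -0.42 in AE against E12.5, and on it Slc1a1 was still 1.02 higher in AE than in ISC. Shares of the summed level depended on the length used, and 33 shares moved by over 1 SD and 7 did not. With the longest transcript Slc1a1 held 66.4% and Slc1a5 20.04% in AE, and without division by length Slc1a2 held 26.9% in ISC. With replicate number as a block, 7258 genes were called in E14.5 against E12.5, 9103 in ISC against E14.5, 10229 in AE against ISC, 10335 in ISC against E12.5, 11873 in AE against E14.5 and 12509 in AE against E12.5, with no member's call changed. Same-numbered libraries correlated between -0.106 and 0.144, so this pairing rests on a shared number only. Depth limits Slc1a1 and Slc1a2 in the embryo, which rest on 2 to 43 reads per library.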
